A study of Drosophila melanogaster with 2 samples.

Results

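The peaks described here are candidate binding regions of the Drosophila melanogaster protein Su(var)2-10 whose summit, the base of highest signal, lies in protein-coding sequence. This nuclear protein belongs to the PIAS family of SUMO E3 ligases, which help to attach the small protein SUMO to other proteins. Mutations in its gene weaken position-effect variegation, in which a gene moved next to heterochromatin is silenced in some cells and active in others. Of the 30000 candidate peaks that the authors called from the pooled replicates, 2342 (7.81%, 95% Wilson interval 7.51 to 8.12) were kept. Each had its summit in annotated coding sequence, over 250 bp from every annotated transcript start and outside every 5′ UTR. The choice used positions only, so signal, q-value and the replicate lists were not part of it.

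Chromatin was prepared from whole embryos, male and female together, collected over 0 to 24 h, so all embryonic cell types were present together. The flies were a transgenic line in which Su(var)2-10 carried GFP at its C-terminus, and the DNA was immunoprecipitated with an antibody to GFP after sonication to 200 to 800 bp. There was 1 group of 2 biological replicates, labelled 2 and 3, and no other genotype, tag or stage, so the comparisons below are between peaks and not between conditions. The promoter behind the fusion, and how many copies of the untagged gene the animals had, are not stated in the labels. Depth is unknown, because the lists hold peaks and not reads, and every interval covers counting error only.

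Coding sequence is the part of an exon that is translated, and the fly genome is compact, so that introns, UTRs and start sites are rarely far from it. ChIP-seq peaks of chromatin proteins are usually read against promoters and enhancers, which lie mainly outside coding sequence. A candidate list of this kind is made long on purpose, as input for the irreproducible discovery rate (IDR) procedure, which compares the order of peaks in replicates and keeps those that rank alike. Such a list holds peaks and background alike.

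A group of 6 coding-sequence peaks passed the authors' IDR filter, and the 30 bases at their summits are shown because they are the coding positions that met the authors' own standard. The sequences are from the RefSeq Release 6 assembly, written 5′ to 3′ on the strand of the gene, with the summit base in capitals.
lawc: ttccttcgacgtcgTctctgttcgttgtag
bif: cggttcagaggaaaaGtctgagaaatcttc
glec: aagcgatcgcaaaaAaagcaacggcagtgc
Pde1c: ccggaaacggaaacGgccgatggcgagcag
Dab: atctctcgttggccaGcacctttggcggcg
CG43062: acacgggcttcgagtGcgtgtacaaaagga
These are chrX:8409814-8409843 (minus strand, lawc), chrX:11681770-11681799 (plus strand, bif), chr3R:21855465-21855494 (minus strand, glec), chr2L:11816600-11816629 (minus strand, Pde1c), chr3L:16714255-16714284 (plus strand, Dab) and chr3R:11750661-11750690 (plus strand, CG43062) on dm6.

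Passing the filter was rare among coding-sequence peaks. The filter kept 6 of 2342 (0.256%, 95% Wilson interval 0.117 to 0.558), against 2936 of the 27658 other candidates (10.6%), where 9.81% of all candidates passed. The passing peaks were the 2942 of highest pooled signal, so passing and signal are 1 measure here. A q-value of 0.05 or less was given to 8 coding-sequence peaks and to 3493 other candidates (12.6%). The median q-value was 0.620 in coding sequence and 0.487 elsewhere, so most entries of both kinds were weak.

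The strongest coding-sequence peak lay in lawc, the leg-arista-wing complex gene, on X at 8409561 to 8410096, and its signal, the authors' own score, was 276. Its rank was 737 among pooled peaks, 1136 among those of replicate 2 and 729 among those of replicate 3, so both replicates placed it high. Its summit was 269 bp from the nearest transcript start, close to the limit of the rule, and also lay in an intron of another annotated transcript. Only 40.9% of its 536 bp were coding, so the larger part of this peak covered noncoding sequence.

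The other 5 differed in how well the replicates ranked them. The peak in bif (X, 11681517 to 11682052), which encodes an actin-binding cytoskeletal protein, had a signal of 199.6 and ranked 640 in replicate 3 but 5947 in replicate 2. The peak in glec (3R, 21855212 to 21855747), the gene of the glial carbohydrate-binding protein gliolectin, had a signal of 166 and ranked 2014 in replicate 2 and 2683 in replicate 3. Pde1c, a calcium- and calmodulin-dependent phosphodiesterase gene, had a peak with a signal of 164 (2L, 11816347 to 11816882) that ranked 1802 in replicate 2 and 2862 in replicate 3. All these summits lay within 76 bp of a summit in both replicate lists, and bif was the one of the 6 with ranks furthest apart.

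In Dab, which encodes the Disabled adaptor of receptor and Abl kinase signalling, the peak (3L, 16714002 to 16714537) had a signal of 162 and ranked 1818 in replicate 2 and 2593 in replicate 3. The CG43062 peak (3R, 11750408 to 11750943) had a signal of 161 and ranked 2702 in replicate 2 and 1766 in replicate 3. Coding sequence took up 20.3% of the Dab interval, 27.2% of the Pde1c interval, 62.5% of the bif interval, 64.9% of the glec interval and 91.2% of the CG43062 interval. Of the 6, CG43062 and lawc have a single coding exon, while the Pde1c summit lay in the last coding exon and the Dab summit in the first. The Dab summit was not coding in every transcript of its gene and also lay in an intron of an annotated transcript. No interval of the 6 was wholly coding.

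Below the filter the next coding-sequence peaks were in CG33229, with a signal of 128 and pooled rank 2970, and in lola, with a signal of 125 and pooled rank 3076. They are the remaining 2 with a q-value of 0.05 or less. The CG33229 peak matched a summit ranked 3499 in replicate 2 and 2607 in replicate 3. The lola peak matched one ranked 22607 in replicate 2 and 2254 in replicate 3, so the replicates ranked it far apart. The next 12 of the 20 strongest had signals between 102 and 114 and q-values between 0.0555 and 0.0881. They included Rtnl1 (112), a reticulon that shapes the endoplasmic reticulum, Rpp14b (111.4), named for a subunit of RNase P, Vha16-1 (108.4), a proteolipid subunit of the vacuolar proton pump, and otp (106), a homeobox transcription factor. CG32795, l(3)mbn, CG14220, CG8026, Nepl3 and CG46387 completed the group with second peaks of CG43062 and glec, whose summits lay 199 and 230 bp from the passing summits of the same genes and so shared sequence with them. Of these 12, Vha16-1, CG32795 and CG8026 had no summit within 100 bp in replicate 2, and all 12 had one in replicate 3.

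Coding sequence held fewer candidate peaks per length than most other places did. The rule admitted 20.9 Mb of coding sequence, 15.2% of the sequence examined, and it held 112 candidate peaks per Mb. Stretches within 250 bp of a start held 416 per Mb, 5′ UTRs 345, 3′ UTRs 341, introns 255, intergenic sequence 161 and other exons 86.4, with 219 over all sequence. For peaks past the filter the densities were 0.287 per Mb in coding sequence, 21.5 in introns and 108 near starts. The lowest after coding sequence were 3′ UTRs at 4.87 per Mb, where 31 of 2173 candidates passed, and other exons at 6.98. Intergenic sequence held 14.5 per Mb and 5′ UTRs 23.65. Peaks were called on reads, so the share of each place that could be mapped enters these densities and was not tested.

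**Figure D1:**
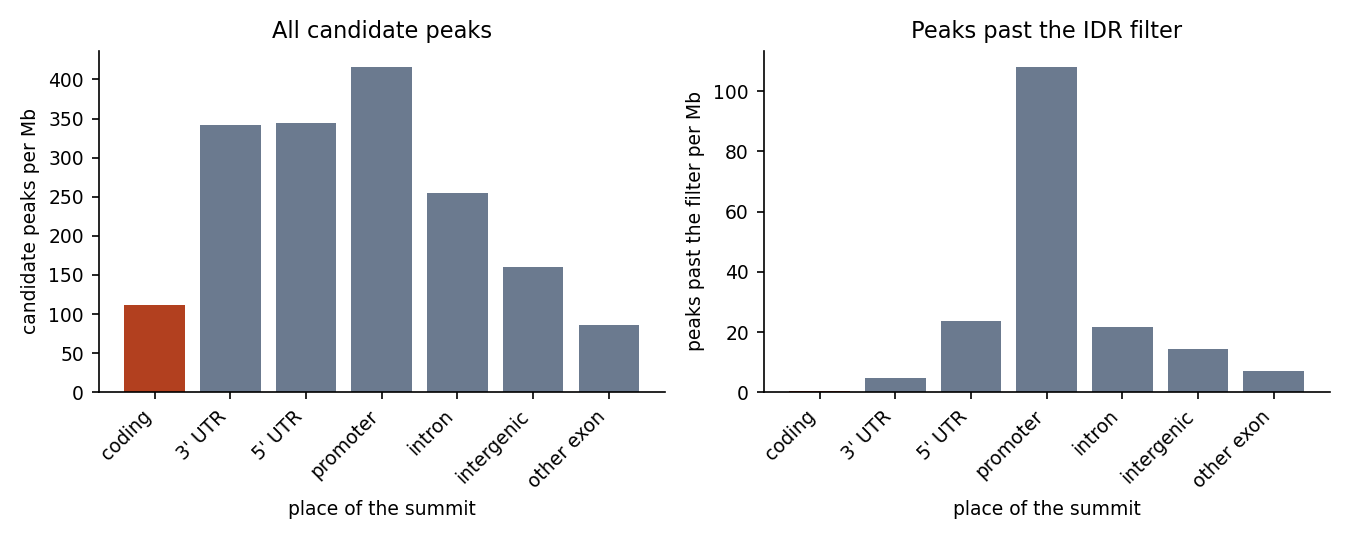
Candidate peaks (left) and peaks past the IDR filter (right) per Mb of sequence, by the place of the summit. Coding sequence, the first bar of each panel, held 112 candidates per Mb and 0.287 peaks past the filter per Mb, the second too low to see on this axis.

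Their signal was low within the list. The 2342 values ran from 34.7 to 276 with a median of 43.9, against a median of 52.0 over the 27658 other candidates (range 34.7 to 2409). The difference of medians was -8.06, and no permutation of the labels among 100000 was as large (two-sided permutation p = 1e-05, the smallest they can give). Peaks near each other share reads and are not independent, so this p and those of the tests below are too small. In 3′ UTRs the median was 48.6 and in introns 50.8. Their share of the list grew down the ranks, at 0.233% of the first 3000 ranks, 4.87% of ranks 6001 to 9000 and 11.8% of the last 3000.

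Both replicate lists held a summit within 100 bp for 485 of the coding-sequence peaks, which is 20.7% (95% Wilson interval 19.1 to 22.4), where they did so for 33.5% of all candidates. A further 667 (28.5%) were matched in replicate 2 alone, 788 (33.6%) in replicate 3 alone and 402 (17.2%) in neither. Other candidates were matched in both in 9572 cases (34.6%) and in neither in 12.4%. The odds of a match in both were 0.493 times those of the other candidates (two-sided Fisher's exact test, adjusted p = 3.44e-45 over 3 comparisons), 0.522 times those of intronic candidates (33.3% matched, adjusted p = 4.38e-36) and 0.749 times those of candidates in 3′ UTRs (25.9% matched, adjusted p = 4.23e-05). The pooled list was made from the same reads as the replicate lists, so a match with them is not independent evidence of a peak. Of the admitted coding bases, 2.58% lay within 100 bp of a summit of replicate 2, and 2.55% within 100 bp of one of replicate 3. For the same reason these shares of bases are not a chance level for the matches.

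At equal pooled rank the order of the groups turned. Within bands of 3000 ranks, coding-sequence peaks were matched in both replicates in 78.0% of cases against 72.1% for other candidates in ranks 3001 to 6000, in 64.4% against 57.6% in ranks 6001 to 9000, and in 48.7% against 42.7% in ranks 9001 to 12000. In the last 4 bands both groups were low, between 0.845 and 10.2% in coding sequence and between 1.40 and 11.2% elsewhere, with no common direction. The Mantel-Haenszel odds ratio over the 10 bands was 1.18 (95% interval 1.05 to 1.34; Cochran-Mantel-Haenszel chi-square test, adjusted p = 0.0246), with 1.14 (1.00 to 1.30, adjusted p = 0.0437) against introns and 1.22 (1.03 to 1.44, adjusted p = 0.0269) against 3′ UTRs. The excess was small and did not hold in replicate 2. By the same chi-square test the ratio was 0.981 (unadjusted p = 0.67) for a match in replicate 2, whatever replicate 3 held, 1.14 (unadjusted p = 0.0044) for a match in replicate 3, and 1.04 (unadjusted p = 0.47) for a match within 200 bp in both.

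**Figure D2:**
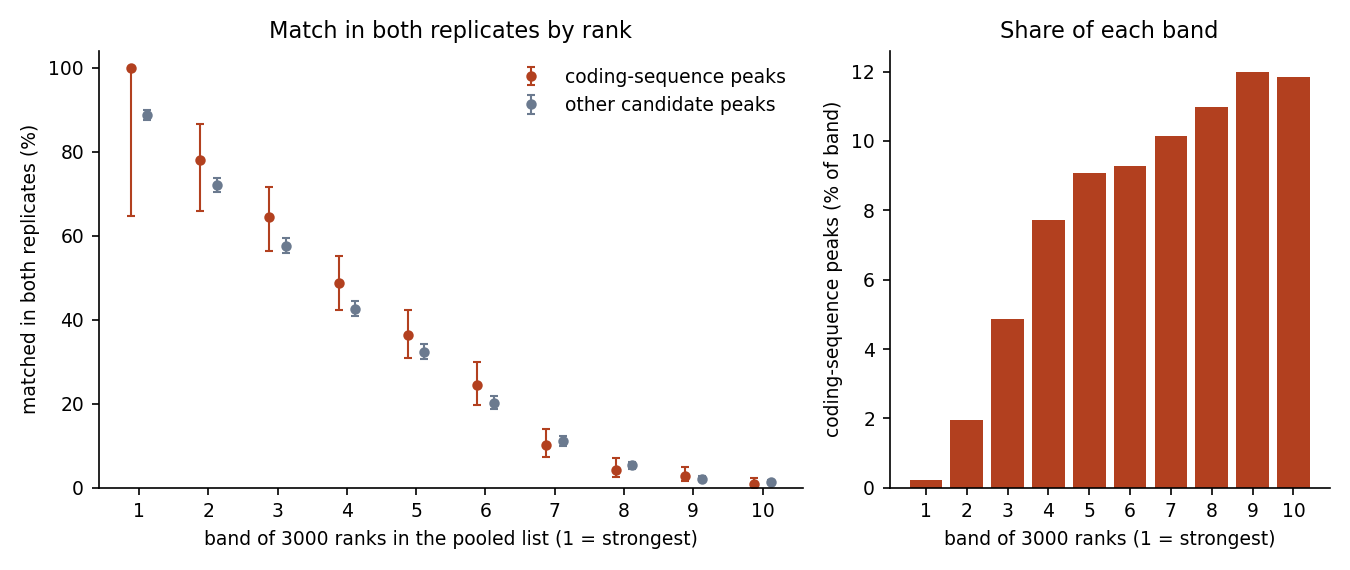
Left, share of coding-sequence peaks (red) and of other candidate peaks (grey) with a summit within 100 bp in both replicate lists, by bands of 3000 ranks of pooled signal, with 95% Wilson intervals. Right, coding-sequence peaks as a share of each band. Match falls with rank in both groups, and coding-sequence peaks make up 0.233% of the first band and 11.8% of the last.

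The replicate lists, taken without the pooled list, gave the same picture of weak sharing. Replicate 2 had 2703 coding-sequence peaks by the same rule (9.01% of its list), and replicate 3 held a summit within 100 bp for 470 of them (17.4%, 95% Wilson interval 16.0 to 18.9). Replicate 3 had 2687 (8.96%), and 483 (18.0%, 16.6 to 19.5) had one in replicate 2. Of the peaks outside coding sequence, 35.3% of those of replicate 2 and 35.2% of those of replicate 3 were shared in this way. These shares are descriptions of whole lists, and no adjustment for rank was made in them.

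The 485 peaks found in both replicates were spread over most of the range of ranks in each. Their median rank was 15004 in replicate 2 (range 1136 to 29992) and 16978 in replicate 3 (range 640 to 29977). All coding-sequence peaks were listed with a width of 536 bp, so width did not tell them apart. Neighbours overlapped in part: 684 (29.2%) had an interval that overlapped another candidate, against 43.4% of the other candidates, and 185 groups of overlapping candidates held more than 1 coding-sequence peak.

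Most of these peaks were coding at the summit but not over their whole interval. The median interval was 78.4% coding, and 576 of the 2342 (24.6%) lay wholly in coding sequence. The wholly coding peaks were matched in both replicates in 107 of 576 cases (18.6%, 95% Wilson interval 15.6 to 22.0), and the others in 378 of 1766 (21.4%, 19.6 to 23.4), so the intervals overlap. The summit was coding in every transcript of its gene for 1981 (84.6%). It also lay in an intron of some transcript for 292 (12.5%) and in a 3′ UTR of one for 142 (6.06%), so at those positions the label depends on the transcript. The median distance to the nearest transcript start was 1386 bp.

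Density was highest near the borders of coding sequence. Coding bases 1 to 50 bp from the nearest noncoding base held 151 peaks per Mb (95% interval 141 to 161) and those at 51 to 100 bp held 148. At 101 to 250 bp the value was 103, at 251 to 500 bp 88.0, at 501 to 1000 bp 85.4 and beyond 1000 bp 44.8 (34.2 to 58.5). The sonicated fragments were 200 to 800 bp long, so a summit within the first bands cannot be placed on one side of such a border with certainty. The share matched in both replicates had no such trend, at 23.2% nearest to the border, 17.4% at 251 to 500 bp, 23.0% at 501 to 1000 bp and 13.5% beyond 1000 bp.

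Density also fell with exon length, and it varied with place in the gene without a single slope. Of the 2342 peaks, 2257 lay in the longest coding sequence of their gene. Coding exons of up to 200 bp held 172 peaks per Mb (95% interval 157 to 187), those of 201 to 500 bp 136, those of 501 to 1000 bp 107, those of 1001 to 2000 bp 86.6 and longer ones 68.3 (60.2 to 77.4). Last coding exons held 138 per Mb (130 to 147), first ones 118 (105 to 132), single ones 107 (93.9 to 121) and internal ones 96.4 (92.2 to 101). With each coding sequence cut into 10 equal parts from 5′ to 3′, part 1 held 167 per Mb and part 10 held 169, with 83.1 to 97.1 in parts 2 to 7, 116 in part 8 and 129 in part 9. Part 1 has less admitted sequence than the others, because the rule leaves out bases near a start. Distance to noncoding sequence, exon length and place in the gene overlap with each other, and their parts in these differences were not tested apart.

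**Figure D3:**
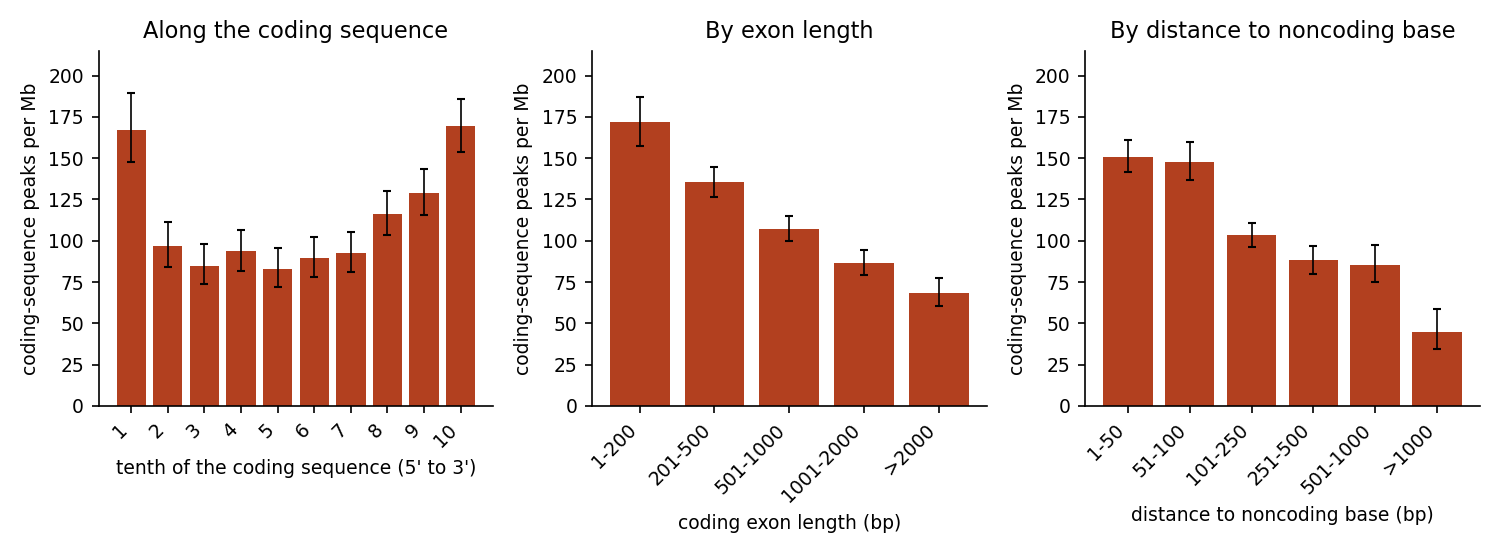
Coding-sequence peaks per Mb of coding sequence that the rule admits, by 10 equal parts of the longest coding sequence from 5′ to 3′ (left), by coding exon length (middle) and by distance of the summit to the nearest noncoding base (right), with 95% intervals for the counts. The ends of the coding sequence, short exons and bases near noncoding sequence had the highest densities, and bases over 1000 bp from noncoding sequence the lowest, at 44.8 per Mb.

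Chromosome 4, the small and largely heterochromatic chromosome whose genes are nevertheless active, stood apart. It held 139 coding-sequence peaks in 0.259 Mb of admitted sequence, or 537 per Mb. The other arms held 111 per Mb (2L), 119 (2R), 122 (3L), 106 (3R) and 73.6 (X), and Y held none. Candidates outside coding sequence were also densest on chromosome 4, at 472 per Mb overall and 447 per Mb in introns, so there coding sequence was not below introns as it was on the large arms. On X, by contrast, coding density was the lowest of these arms, while introns there held 257 per Mb against 230.3 to 288 per Mb on the large autosome arms.

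The match in both replicates on chromosome 4 was 28.8% in coding sequence (40 of 139, 95% Wilson interval 21.9 to 36.8) and 30.0% among the other candidates. On the 5 other arms it was 18.9 to 24.7% in coding sequence and 32.7 to 35.8% among the other candidates. The median signal of coding-sequence peaks was 49.1 on chromosome 4 and 43.2 to 44.5 on the other arms. Copy number, mappability and the control profile per chromosome were not used here, and their part in these densities was not tested.

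**Figure D4:**
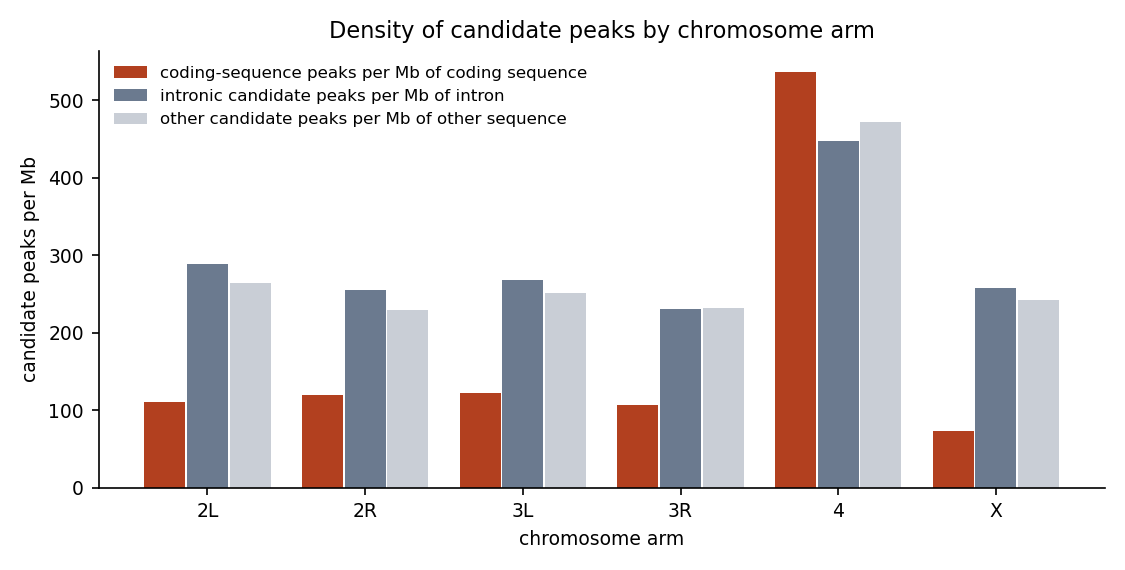
Coding-sequence peaks per Mb of admitted coding sequence (red), intronic candidates per Mb of intron (dark grey) and all other candidates per Mb of other sequence (light grey) by chromosome arm. On chromosome 4 the coding density was 537 per Mb and above that of introns (447), while on the 5 other arms it was below.

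The 2342 peaks fell in 1857 host genes, 13.7% of the 13582 genes with admitted coding sequence. Most hosts had 1 peak (1513 genes), 262 had 2, 54 had 3, 13 had 4, 9 had 5, 4 had 6, and the highest counts were 8 in bt and 16 in lola. Host genes offered more sequence, with a median of 1677 bp of admitted coding sequence against 1077 bp over all genes. Counts per gene are therefore given with the length of the gene's coding sequence.

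The gene with most coding-sequence peaks was lola, on 2R at 10481894 to 10543291 (minus strand). It encodes BTB zinc-finger transcription factors that guide axon growth, and its many isoforms share their 5′ exons and differ in the 3′ exons that encode their zinc fingers. Its 16 peaks had signals from 37.4 to 125 (median 57.8), which is 1.10 per kb over 14.6 kb of admitted coding sequence. Summits within 100 bp were found in both replicates for 6 of them, in 1 replicate for 9 and in neither for 1. None of the 16 was in coding sequence of all 24 coding transcripts, and 15 lay in a last coding exon, between 17.6 and 59.6 kb from the 5′ end of the gene. The whole gene, 61.4 kb long, held 65 candidates, so peaks were not particular to its coding sequence. The 49 beyond these 16 had a median signal of 54.0. The 3 candidates past the filter lay between 1.11 and 7.39 kb from the 5′ end, all outside coding sequence. In 4 cases neighbouring coding-sequence summits were under 0.5 kb apart, so these peaks share sequence.

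**Figure D5:**
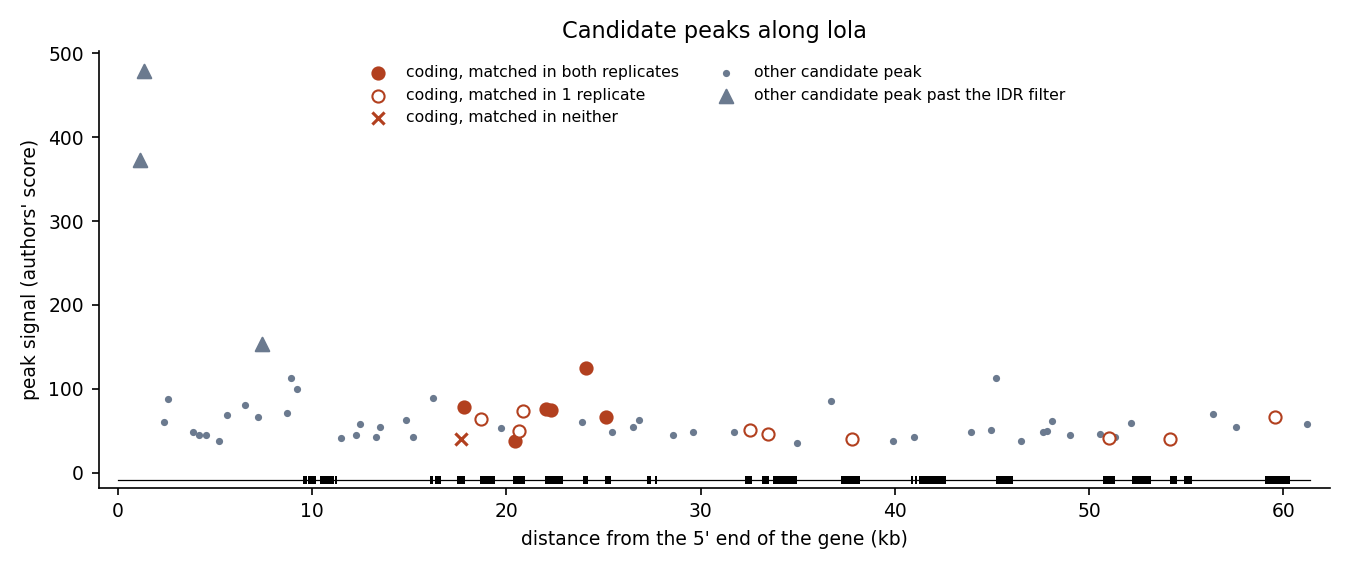
Candidate peaks along lola, with signal (the authors' score) against distance from the 5′ end of the gene, and coding exons of all transcripts as black boxes below. The 16 coding-sequence peaks (red) reach a signal of 125 and lie 17.6 kb or more from the 5′ end, and the 3 peaks past the filter (triangles) lie within 7.39 kb of it.

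The next gene was bt, which encodes projectin, a giant protein of the muscle sarcomere, on chromosome 4. It had 8 peaks in 26.7 kb of admitted coding sequence (0.299 per kb), with signals from 34.8 to 60.0, and none was matched in both replicates: 6 were found in 1 and 2 in neither. shg, the gene of E-cadherin in adherens junctions, had 6 peaks in 4.52 kb (1.33 per kb) with signals from 39.6 to 71.5, of which 1 was matched in both. eIF4G1, a scaffold of translation initiation on chromosome 4, had 6 in 5.76 kb (1.04 per kb), of which 2 were matched in both. shot, a spectraplakin that links actin and microtubules, had 6 in 27.8 kb (0.216 per kb), of which 1 was matched in both. unc-13, which encodes a protein that primes synaptic vesicles and also lies on chromosome 4, had 6 in 14.6 kb (0.410 per kb), of which 1 was matched in both. Over all genes, admitted coding sequence held 112 peaks per Mb. On chromosome 4 it held 537 per Mb, so bt and unc-13 were below the density of their chromosome and eIF4G1 was above it. None of these 6 genes had a coding-sequence peak past the filter, and the best pooled rank outside lola was 7895, in shg.

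Gene groups are described by how many of their genes held a coding-sequence peak, with 13.7% of all genes as the background and no test of a difference. For the counts matched in both replicates the background is 485 of all 2342 coding-sequence peaks (20.7%). Each group held few peaks, so its matched share is imprecise. Peaks named from a group are the strongest of their gene, except that a second peak is named for Tm1. Cytoplasmic ribosomal protein genes, short and highly expressed, were hosts in 12 of 88 cases (13.6%), with 355 peaks per Mb of their admitted sequence against 112 over all genes. Their strongest were RpS3A (signal 86.9), RpS6 (85.3) and RpL17 (79.4), and 4 of the 12 peaks were matched in both replicates, among them RpS6 and RpL17. Glycolytic enzyme genes were hosts in 4 of 10 cases with 6 peaks, 465 per Mb, of which 1 was matched in both. Pfk, the phosphofructokinase gene, had the strongest (71.0, matched in both), and Gapdh2 (45.8) and Gapdh1 (43.5), which encode glyceraldehyde-3-phosphate dehydrogenase, were not matched in both. The 2 Gapdh genes are similar copies, and whether reads were split between them was not tested.

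Muscle structure genes were hosts in 6 of 12 cases with 19 peaks, of which 2 were matched in both replicates. Of the tropomyosin genes, Tm1 had 4 peaks, of which the strongest (69.0) was matched in replicate 3 alone and the next (68.1) in both, and Tm2 had 1 (66.1), matched in both. Extracellular matrix genes were hosts in 4 of 11 cases with 8 peaks, of which 6 were matched in both, among them those in the laminin subunit genes wb (77.5) and LanA (61.2). The nidogen gene Ndg (50.8) was matched in replicate 2 alone. Cadherins and other large adhesion genes were hosts in 4 of 7 cases with 10 peaks, of which the strongest shg peak (71.5) was the 1 matched in both. CadN (40.0) and kug (39.0), which encode large cadherins, had weak peaks. These 3 groups hold long genes, and per length they had 171, 102 and 113 peaks per Mb, against 112 over all genes. Of the 19 muscle peaks, 8 were in bt on chromosome 4, where coding sequence held 537 per Mb.

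Homeotic and segmentation genes were hosts in 6 of 25 cases with 8 peaks, 225 per Mb, of which 1 was matched in both, in Ubx (59.9). kni (49.7) and Dfd (49.1) were matched in 1 replicate each. Cuticle protein genes, tissue-specific genes of the body wall, were hosts in 6 of 116 cases (5.17%), 94.1 peaks per Mb, led by Cpr51A (85.4), TwdlG (60.6) and Cpr67B (44.5). Chemoreceptor genes, expressed in few sensory neurons, were hosts in 10 of 176 cases (5.68%) with 12 peaks, 55.0 per Mb, led by Gr94a (49.5), Ir51b (47.4) and Gr85a (47.2). Heat-shock and chaperone genes were hosts in 1 of 24 cases, 26.7 peaks per Mb, with Hsc70-3 (44.9). No coding-sequence peak lay in the 17 actin and tubulin genes, the 111 replication-dependent histone genes or the 9 SUMO pathway genes. These 3 groups offered little admitted sequence, 21.1 kb, 28.1 kb and 16.8 kb. Whether reads could be placed in genes with close copies was not tested.

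Few of these peaks lay within 1000 bp of a summit past the filter, but by median distance they were nearer to one than other candidates were. Leaving out those that passed it, 65 of 2336 coding-sequence peaks (2.78%, 95% Wilson interval 2.19 to 3.53) had a passing summit within 1000 bp, against 1758 of 24722 other candidates (7.11%). The median distance to the nearest passing summit was 9939.5 bp for these coding-sequence peaks and 12484.5 bp for these other candidates. Of the 2942 passing peaks, 1089 lay within 250 bp of a start. The rule bars coding-sequence peaks from there, while the other candidates include such summits. Of the 65, 19 (29.2%, 19.6 to 41.2) were matched in both replicates, against 460 of the 2271 further away (20.3%, 18.7 to 22.0), and these intervals overlap.

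By GC content the windows were nearer to coding sequence in general than to the whole candidate list, but somewhat lower than coding sequence. GC content over 200 bp at the summit had a median of 50.5% in coding-sequence peaks, against 38% in intronic candidates and 34.5% in 3′ UTR candidates. Over all candidates the median was also 38%. Windows laid at even steps over all admitted coding sequence had a median of 52.5%. Their quartiles were 47.5 and 57%, against 44.5 and 55.5% in coding-sequence peaks. The median of the peaks matched in both replicates differed from that of the rest by -0.5 percentage points (two-sided permutation p = 0.67).

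Short motifs were searched on both strands as exact letters in the same 200 bp. GAGAG, the core recognised by GAGA factor, was in 19.2% of coding-sequence peaks, 21.5% of all candidates and 22.8% of coding windows. CAGCAGCAG, a repeat that encodes glutamine in one frame, was in 5.0% of coding-sequence peaks, 1.42% of all candidates and 4.75% of coding windows. TATCGATA, the core bound by the insulator protein BEAF-32 and by DREF, was in 0.171%, 1.10% and 0.173%. The dinucleotide repeat CACACACA was in 0.769%, 4.93% and 0.595%, and GTCACACT, from the core promoter element called Motif 1, in 0.0854%, 0.717% and 0.274%. Runs of 8 bases of A or T were in 37.7%, 82.3% and 27.8%. For every motif except GAGAG, the share in coding-sequence peaks was nearer to that in coding windows in general than to that in the whole candidate list.

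The 250 bp limit cut through a continuous range of distances. A further 211 candidates had coding summits nearer to a start and were left out. Just inside the rule were a peak in l(3)mbn (signal 108) and one in e(y)2 (67.6), each 253 bp from a start, and just outside were one in P5cr (89.9) at 250 bp and one in Pka-C3 (41.5) at 249 bp. l(3)mbn and Pka-C3 were matched in both replicates, e(y)2 and P5cr in replicate 3 alone.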

How the data were processed

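Peak lists on dm6 were used, 1 for each of the 2 replicates, 1 for the pooled replicates and 1 past the IDR filter. Per the submitters' file notes, peaks were called on each replicate and on both pooled. No source used here gives the aligner, the caller, or the IDR version and threshold. The deposited signal is a score without a unit, compared here within 1 list at a time, and q-values came from the deposited −log10 q. The summit is the deposited start plus the deposited offset.

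Places came from Ensembl release 115 (BDGP6.54) (within 250 bp of a start first, then 5′ UTR, coding, 3′ UTR, intron, other exon and intergenic), and sequence from RefSeq Release 6, which is dm6. A match is a replicate summit within 100 bp, and 1 replicate summit may match several pooled peaks. Shares have 95% Wilson intervals and densities the same interval per length. Tests were Fisher's exact, Cochran-Mantel-Haenszel chi-square over 10 rank bands (Mantel-Haenszel ratio) and 100000 permutations of medians, all two-sided, at 0.05, with Benjamini-Hochberg adjustment over 3 comparisons. Python 3.11.15, numpy 2.4.6, pandas 2.3.3, scipy 1.17.1 and statsmodels 0.14.6 were used, and matching and banded ratios were tested on simulated data.

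Named genes hosted a peak past the filter, 1 of the 20 strongest peaks, the most peaks (5 genes, extended to 6 by a tie), the strongest peak of up to 3 genes of each of 12 gene lists (genes in order of that peak), or peaks beside the 250 bp limit. The members and lists were chosen with earlier results of these data known. The lists on the dm3 build were not used.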

Additional observations from a re-analysis of the deposited data

How the results depend on the processing

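Alternatives moved the start limit, the match distance, the rank bands and the GC window, kept 1 summit per overlapping group, left out peaks overlapping a passing peak, or required coding sequence in every transcript. Leaving out chromosome 4 was added after seeing the data. The number of coding-sequence peaks was 1472 at 1000 bp from a start and 8 at q-values of 0.05 or less, where all 8, or 100%, were matched, no odds ratio or GC difference could be had, and the signal difference was -12.08 (permutation p = 0.72). With each replicate list in place of the pooled list the number was 2687 to 2703 and the signal difference -5.09 to -3.62. The share matched in both replicates was 13.6% within 50 bp and 29.8% within 200 bp, and with 1 replicate alone 49.2 to 54.4%, where a looser rule matches more by construction. The odds ratio against other candidates was 0.654 to 0.715 with 1 replicate alone and stayed below 1 with p under 0.05 in the others. Within rank bands the ratio was 1.04 within 200 bp (chi-square p = 0.47) and 0.981 to 1.14 with 1 replicate alone, below 1 for a match in replicate 2; the cause was not tested. The remaining values kept their direction and side of the threshold, except that the GC difference was 0 at 500 and 1000 bp and for a match in replicate 3 alone. No paired analysis was possible because there was 1 group. Unknown depth limits what a missing match can show: a peak absent from a list of fixed length may lie just below its end.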
